A study of Mus musculus with 16 samples.

Results

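ETS factors are transcription factors with a shared DNA-binding domain that reads a core of GGAA. The 9 ETS genes described here, a choice from those known from blood cells, are Erg, Fli1, Etv6, Spi1, Elf1, Elf4, Ets1, Ets2 and Gabpa. They were chosen with earlier results of these data known, and found by their symbols in the deposited count table. All 9 were among its 55487 genes, and all 9 passed the filter on low counts that left 14435 genes for testing. Their RNA was measured in 16 libraries of 5 groups of GFP-sorted mouse leukaemia cells. The leukaemia carries CBFB::MYH11, the fusion protein made by the inv(16) rearrangement, which joins the RUNX partner CBF-beta to a smooth muscle myosin. Cells marked with GFP and given a doxycycline-inducible short hairpin RNA against MYH11 were transplanted into congenic mice.

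In the bone marrow doxycycline group (3 libraries), mice with established leukaemia drank doxycycline at 3 mg/ml in 5% sucrose for 7 days. The secondary disease group (4 libraries, labelled as spleen and as doxycycline-treated) came from a separate cohort kept on the drug until signs of fatal disease. The spleen doxycycline group (3 libraries) had the same 7 days of drug as the bone marrow one. In the bone marrow control group (3 libraries) and the spleen control group (3 libraries), mice drank 5% sucrose alone for 7 days. The control labels name only cells that express the fusion, whereas the design text describes hairpin-transduced cells in both arms. No group received doxycycline without the hairpin, so effects of the drug and of the knockdown cannot be told apart. The sources used here give no age, sex or strain for the mice. The number of clones in the transplanted leukaemia and any pooling of animals are also not given in the sources used here. Titles number the libraries of a group without saying that they came from separate animals. The p-values are therefore set by the spread among libraries alone, which may be technical. Unless a fit of fewer libraries is named, each SE and p-value uses a spread estimated over all 16 libraries, not only those compared.

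In blood formation, ERG, FLI1 and ETV6 are known as factors of stem and progenitor cells, and FLI1 also of the megakaryocyte lineage. PU.1, encoded by Spi1, directs myeloid and B cell programmes, while ELF1, ELF4 and ETS1 are best known from lymphocytes, ETS2 as a target of Ras and MAP kinase signalling, and GABPA as a broadly used activator of housekeeping genes. ETS factors often bind beside RUNX1, the DNA-binding partner of CBF-beta.

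Expected counts per library summed to between 12259707 and 39419370, the lowest in secondary disease replicate 4. That library stood apart from its group, and the 3 spleen doxycycline libraries differed widely from each other. Divided by its degrees of freedom, the chi-square of counts between 2 replicates was 242 to 523 within the spleen doxycycline group and 240 to 265 between secondary disease replicate 4 and its group, against 8.12 to 53 in the remaining pairs of replicates. Several spleen and secondary disease values are therefore given without one of them as well. The 3 bone marrow doxycycline libraries had between 48200 and 60800 CPM (counts relative to library size, with TMM scaling) summed over 9 erythroid marker genes, against 2390 to 4410 in bone marrow controls. In secondary disease that sum was 4150 to 6870 CPM, and in spleen doxycycline replicates 1, 2 and 3 it was 5810, 86600 and 41000 CPM, against 3010 to 5100 CPM in spleen controls. Mouse Myh11 had too few counts to be tested, so the knockdown itself was not checked, and Cbfb, the gene of the fusion partner, differed by a log2 fold change of -0.47 ± 0.27 (SE) between bone marrow doxycycline and control (adjusted p = 0.340).

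Start-site windows of the genes that fell in bone marrow under doxycycline (Erg, Etv6 and Ets2) and of Gabpa, which did not pass the test and whose window held the most ETS hexamers, are shown to let these hexamers be seen. The windows run from 250 bases before to 50 after an annotated start, 5′ to 3′ on the gene's strand, from RefSeq (GRCm38.p6). Capitals mark the ETS hexamers searched on both strands, CCGGAA and AGGAAG, whose reverse complements are TTCCGG and CTTCCT. Of the 9 genes, 6 had windows in the table, 10 windows in all. Erg start site 1 lies at chr16:95586544-95586843 and Erg start site 3 at chr16:95459299-95459598, both on the minus strand. Etv6 lies at chr6:134035450-134035749, Ets2 at chr16:95702157-95702456 and Gabpa at chr16:84834874-84835173, all on the plus strand.
Erg start site 1: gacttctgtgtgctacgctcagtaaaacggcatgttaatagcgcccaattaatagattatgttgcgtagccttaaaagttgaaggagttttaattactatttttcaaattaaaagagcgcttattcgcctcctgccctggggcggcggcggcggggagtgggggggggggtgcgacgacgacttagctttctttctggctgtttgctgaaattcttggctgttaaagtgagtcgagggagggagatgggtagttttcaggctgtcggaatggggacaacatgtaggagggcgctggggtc
Erg start site 3: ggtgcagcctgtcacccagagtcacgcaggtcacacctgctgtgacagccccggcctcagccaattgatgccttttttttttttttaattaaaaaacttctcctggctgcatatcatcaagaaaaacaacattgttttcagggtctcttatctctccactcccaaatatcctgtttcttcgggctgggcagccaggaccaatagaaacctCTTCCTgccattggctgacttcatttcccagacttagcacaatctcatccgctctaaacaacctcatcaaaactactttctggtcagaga
Etv6: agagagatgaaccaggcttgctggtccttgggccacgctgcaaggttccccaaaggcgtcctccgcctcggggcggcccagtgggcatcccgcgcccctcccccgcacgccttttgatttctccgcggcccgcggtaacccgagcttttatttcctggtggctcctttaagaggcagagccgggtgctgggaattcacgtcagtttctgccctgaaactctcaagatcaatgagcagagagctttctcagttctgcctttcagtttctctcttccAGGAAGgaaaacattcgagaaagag
Ets2: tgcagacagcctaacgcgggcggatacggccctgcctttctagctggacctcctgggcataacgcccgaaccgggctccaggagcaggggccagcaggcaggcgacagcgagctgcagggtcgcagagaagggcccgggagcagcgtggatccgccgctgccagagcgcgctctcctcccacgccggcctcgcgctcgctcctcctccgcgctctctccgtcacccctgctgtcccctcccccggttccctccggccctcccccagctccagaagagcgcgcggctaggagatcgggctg
Gabpa: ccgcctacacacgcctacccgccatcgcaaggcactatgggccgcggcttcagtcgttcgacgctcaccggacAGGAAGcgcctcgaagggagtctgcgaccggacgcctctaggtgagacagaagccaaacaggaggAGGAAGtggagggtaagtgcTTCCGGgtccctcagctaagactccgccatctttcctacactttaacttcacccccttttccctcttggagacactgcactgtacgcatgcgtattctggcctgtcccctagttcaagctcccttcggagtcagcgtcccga

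The window of Gabpa held 3 ETS hexamers, with AGGAAG at -177 and -112 and TTCCGG at -92 counted from the start site. Erg start site 3 held 1, CTTCCT at -40, and the Etv6 window held AGGAAG at 26. Neither hexamer occurred in the windows of Erg start sites 1 and 2, Ets2, or Elf1 (start sites 1 and 2). Elf4, which did not pass the test either, held 2 at start site 1 and 0 at start site 2. Among all 32851 RefSeq windows of 300 bases, 14.9% held CCGGAA and 35.4% held AGGAAG on either strand. The RUNX hexamers TGTGGT and TGCGGT, present in 22.4% of all windows, were found in none of the 10 windows of these genes. The GATA hexamers AGATAA and TGATAA, present in 18.6% of all windows, matched once in the 10 windows, at -103 of Erg start site 3.

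Levels are compared between genes as TPM, the authors' value per unit of transcript length. Elf1 had the highest mean TPM of the 9 in each of the 5 groups, at 48.9 ± 3.2 TPM in bone marrow doxycycline and 115 ± 10.2 TPM in bone marrow control (SD, n = 3 each). Ets2 had the lowest mean TPM in each group, 2.73 ± 0.186 in bone marrow doxycycline and 7.7 ± 0.989 in bone marrow control.

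In bone marrow doxycycline, Elf1 was followed by Spi1 (19.8 TPM), Elf4 (19.4 TPM) and Gabpa (17.2 TPM) with overlapping ranges, then by Fli1 (11.8 TPM), Etv6 (8.86 TPM), Ets1 (7.69 TPM) and Erg (3.77 TPM). Of these, Etv6 and Ets1 overlapped. In bone marrow controls, the TPM ranges of Fli1, Erg, Elf4 and Etv6 each overlapped that of the next gene, down to Spi1, with means between 55.2 and 33.7 TPM. Gabpa (23.8 TPM) and Ets1 (18 TPM) followed, with overlapping ranges. Erg thus had rank 8 of 9 by mean TPM in bone marrow doxycycline and rank 3 in bone marrow control.

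In secondary disease and spleen doxycycline every gene's TPM range overlapped that of its neighbour in the order of means. By medians, Gabpa stood above Spi1 in secondary disease, and Fli1, Elf4, Gabpa and Erg stood above Spi1 in spleen doxycycline, where the mean had placed Spi1 second. In spleen controls the order by mean TPM was Elf1 (93.2), Fli1 (54.7), Spi1 (38.4), Elf4 (33), Erg (31.3), Etv6 (25.8), Gabpa (24.8), Ets1 (19.4) and Ets2 (7.83). Among neighbours in this order, ranges overlapped only between Elf4 and Erg and between Etv6 and Gabpa.

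**Figure D1:**
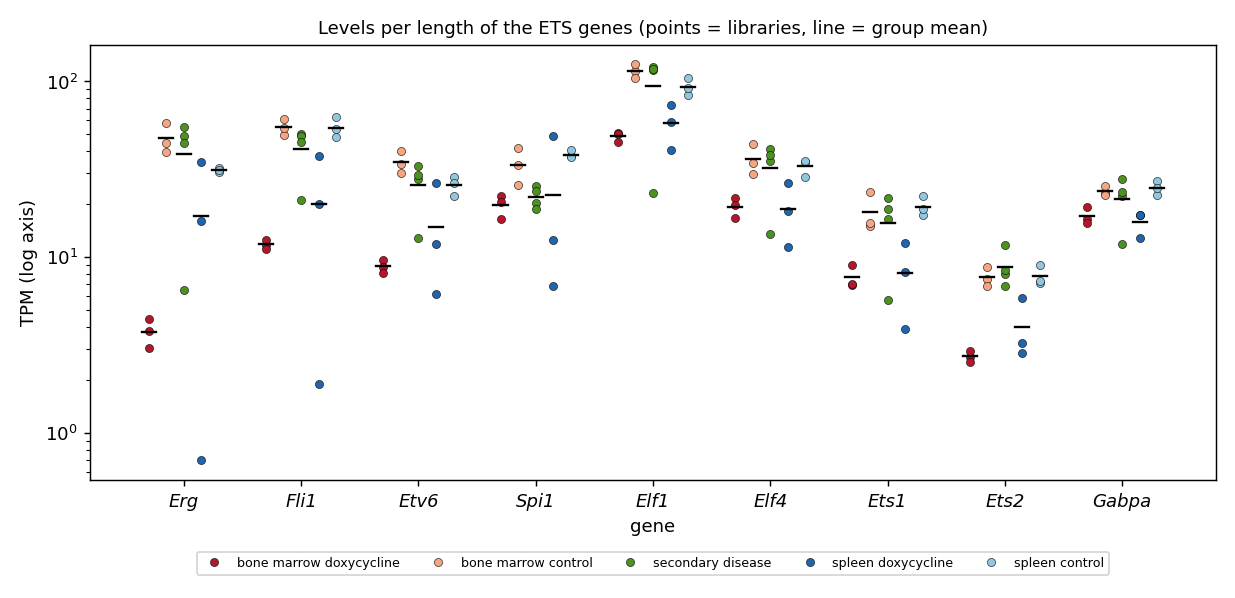
TPM (log axis) of the 9 ETS genes, 1 point per library and a line at each group mean, in bone marrow doxycycline, bone marrow control, secondary disease, spleen doxycycline and spleen control. Elf1 lies highest and Ets2 lowest by mean in every group, and Erg has its lowest group mean, 3.77 TPM, in bone marrow doxycycline.

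The comparison of bone marrow doxycycline with bone marrow control asks what 7 days of hairpin induction changed in leukaemia cells that remained in the marrow. Levels are given as CPM, and differences are log2 fold changes from edgeR's quasi-likelihood test with p-values adjusted by Benjamini-Hochberg over the 14435 genes. Erg, Etv6 and Ets2 fell, and the fitted log2 fold changes of all 9 genes were below 0, from -3.32 to -0.30. The 3 genes that passed, at adjusted p under 0.05, were 3 of 9, where 2.61% of all genes tested passed as lower and 6.57% in either direction. The median log2 fold change of the 9 was -0.99, beside -0.02 over all genes, of which 52.2% were below 0. Since the 9 were chosen with earlier results of these data known, these figures describe them and give no test of the set.

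Erg (chr16:95359169-95586593, minus strand, GRCm38), a factor needed for blood stem cells to persist, had 9.60, 5.86 and 8.05 CPM in bone marrow doxycycline, against 70.0, 79.9 and 84.8 CPM in bone marrow control. All 3 doxycycline libraries lay far below every control, with no overlap. Its log2 fold change was -3.32 ± 0.87 (SE; adjusted p = 0.0377), a 9.99-fold lower level and the lowest of the 9. Of the genes tested, 1.07% had a log2 fold change at or below that of Erg.

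Fli1 (chr9:32422204-32542861, minus strand), the closest relative of Erg in the family, had 31.3, 34.5 and 33.4 CPM in bone marrow doxycycline, against 124, 139 and 128 CPM in bone marrow control. The groups did not overlap, and replicates within each lay close together. Its log2 fold change of -1.98 ± 0.60 (SE; 95% interval -3.26 to -0.70) nevertheless missed the threshold in the fit over all 16 libraries (adjusted p = 0.0636).

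Etv6 (chr6:134035700-134270158, plus strand) encodes a repressor that blood stem cells of the adult marrow depend on. It had 42.9, 40.5 and 42.3 CPM in bone marrow doxycycline, against 129, 149 and 138 CPM in bone marrow control. Every doxycycline library was below every control, and the log2 fold change was -1.72 ± 0.35 (SE; adjusted p = 0.0153), a 3.3-fold lower level. An exon of Etv6 overlaps an antisense gene, and no source used here states whether counting used strand, so reads of the overlap cannot be told apart.

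Spi1 (chr2:91082390-91115756, plus strand), which encodes PU.1, had 24.5, 35.1 and 30.8 CPM in bone marrow doxycycline, against 46.3, 34.3 and 49.6 CPM in bone marrow control. It was the 1 gene of the 9 whose groups overlapped, since doxycycline replicate 2 lay just above control replicate 2. The log2 fold change was -0.53 ± 0.47 (SE; 95% interval -1.53 to 0.48; adjusted p = 0.595), so the interval reaches from a marked fall to a small rise.

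Elf1 (chr14:79481194-79582494, plus strand) and Elf4 (chrX:48411046-48463132, minus strand) are close relatives that act in lymphocytes and, for ELF4, in the quiescence of blood stem cells. Elf1 had 166, 170 and 163 CPM in bone marrow doxycycline, against 347, 322 and 323 CPM in bone marrow control. Its groups were clearly apart, and its log2 fold change was -0.99 ± 0.34 (SE; 95% interval -1.72 to -0.26; adjusted p = 0.0989). Elf4 had 107, 104 and 92.9 CPM in bone marrow doxycycline, against 160, 142 and 178 CPM in bone marrow control, again without overlap, with a log2 fold change of -0.66 ± 0.27 (SE; 95% interval -1.25 to -0.07; adjusted p = 0.171). Exons of Elf1 overlap those of Wbp4 on the other strand, with the same limit as for Etv6.

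Ets1 (chr9:32636221-32757820, plus strand) is best known from T and NK cells. It had 36.0, 29.4 and 32.7 CPM in bone marrow doxycycline, against 58.3, 57.6 and 70.0 CPM in bone marrow control, with no overlap and a log2 fold change of -0.92 ± 0.33 (SE; 95% interval -1.63 to -0.22; adjusted p = 0.110). Ets2 (chr16:95702075-95721051, plus strand), a neighbour of Erg on the same chromosome, had 8.19, 8.51 and 8.65 CPM in bone marrow doxycycline, against 20.3, 19.9 and 21.9 CPM in bone marrow control. Here the spread within each group was small beside the distance between them, and Ets2 fell by a log2 fold change of -1.29 ± 0.30 (SE; adjusted p = 0.0249), a 2.45-fold lower level.

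Gabpa (chr16:84834925-84863779, plus strand), whose protein pairs with the GABPB subunits, had 66.3, 61.4 and 60.9 CPM in bone marrow doxycycline, against 79.4, 80.6 and 72.4 CPM in bone marrow control. The ranges were next to each other without overlap, and the log2 fold change was the one nearest 0 among the 9, -0.30 ± 0.27 (SE; 95% interval -0.88 to 0.28; adjusted p = 0.596). Exons of Gabpa overlap those of Atp5j on the other strand. In all, 8 of the 9 genes were lower in every doxycycline library than in every control, where 24.6% of all genes tested were. That some of the 9 differ less than others was not tested gene against gene.

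**Figure D2:**
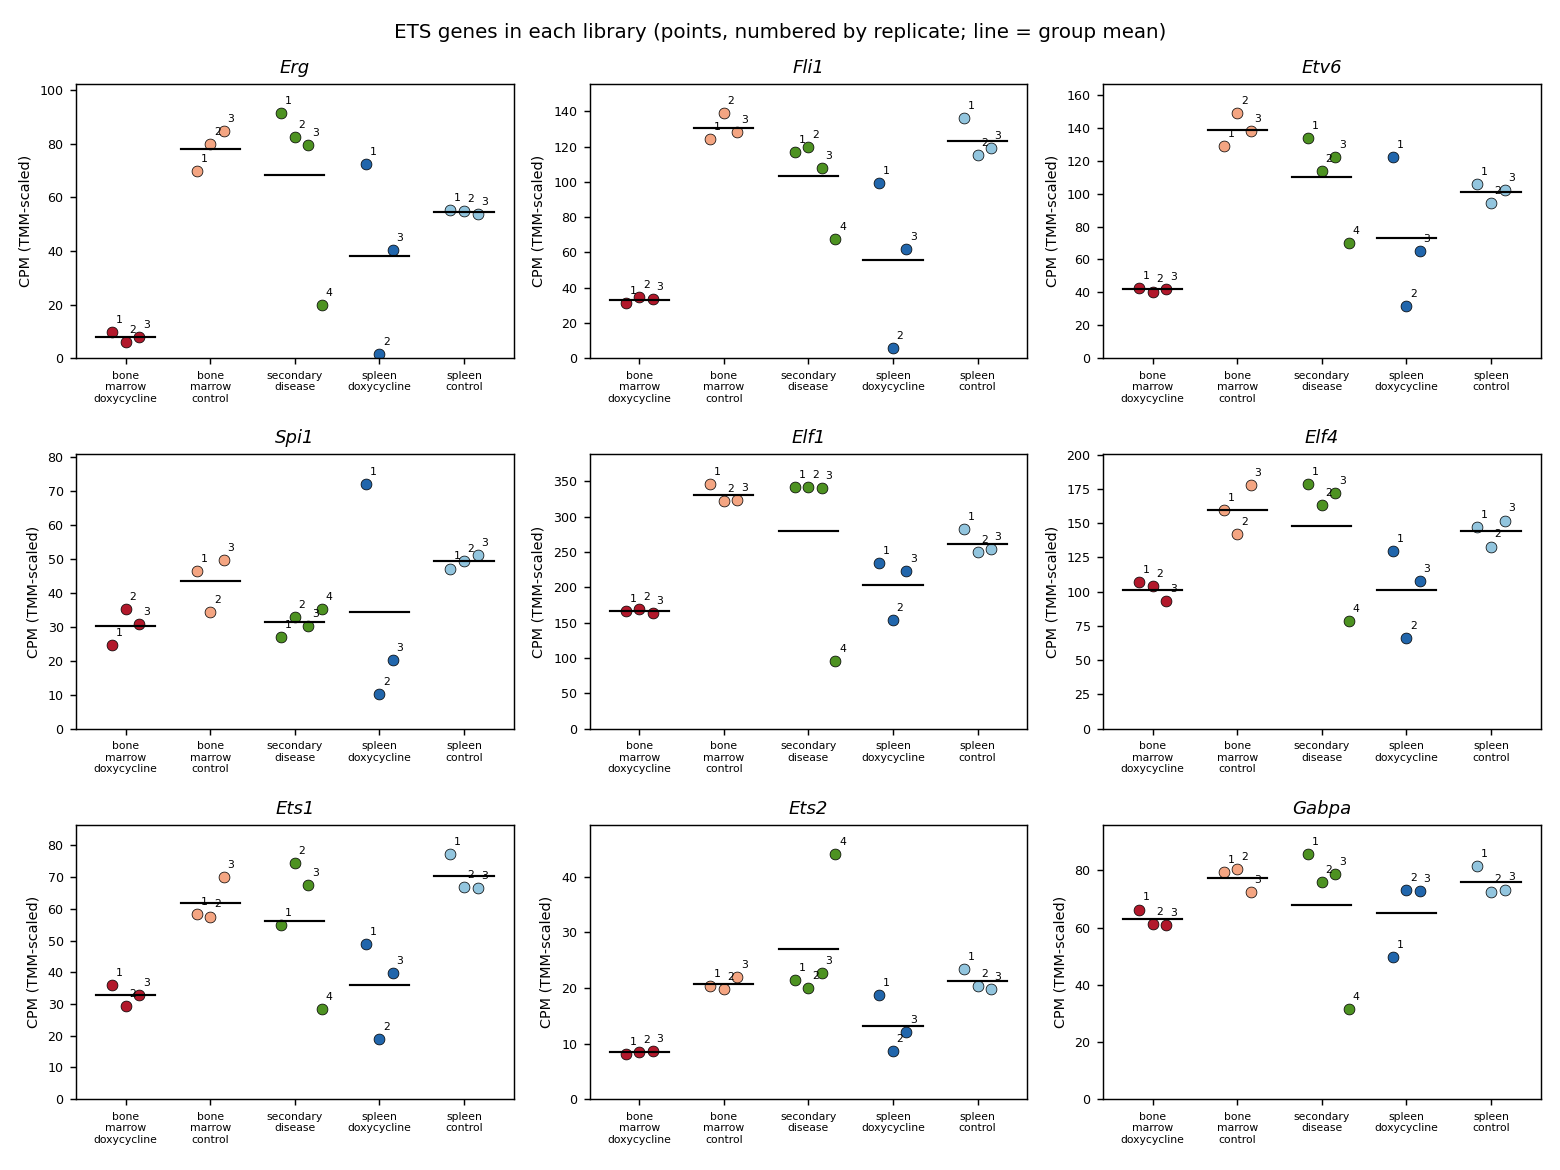
CPM of each ETS gene by library, with points numbered by replicate and a line at each group mean, in bone marrow doxycycline, bone marrow control, secondary disease, spleen doxycycline and spleen control. In bone marrow, the doxycycline points lie below all control points for 8 genes and overlap them for Spi1, while spleen doxycycline and secondary disease replicate 4 spread widely.

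**Figure D3:**
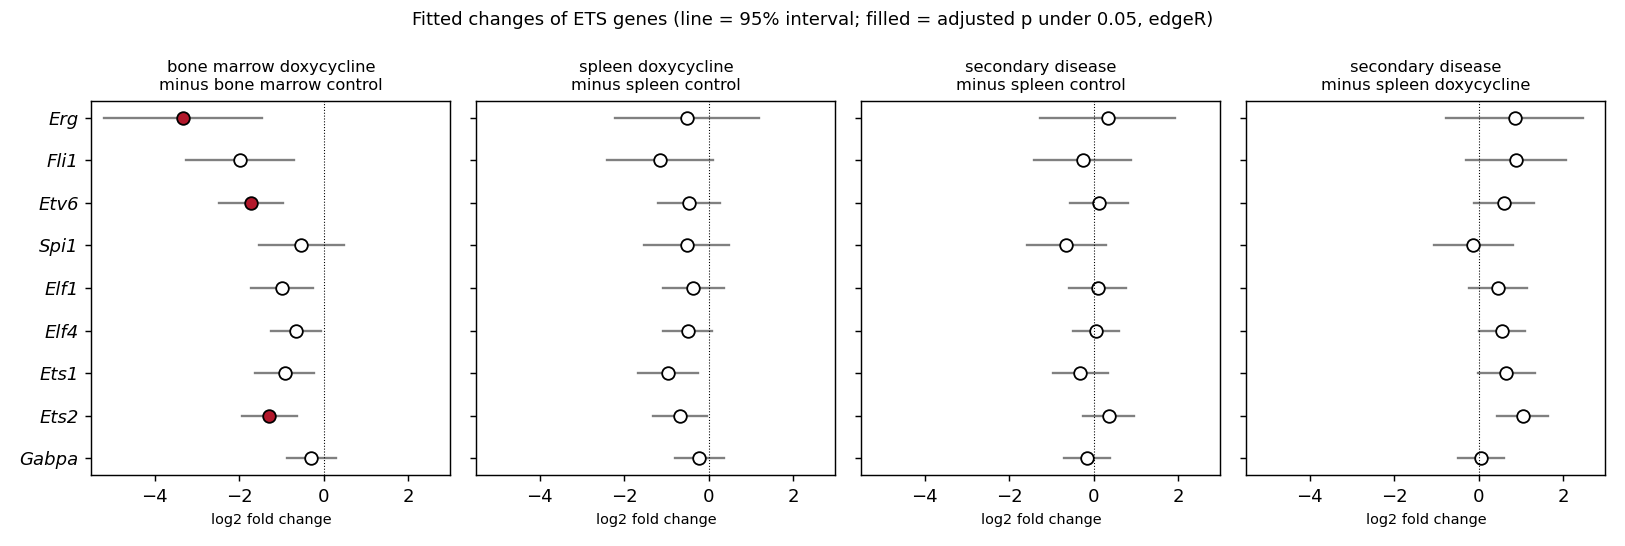
Fitted log2 fold changes of the 9 ETS genes in 4 comparisons, with 95% intervals, filled where the adjusted p was under 0.05 in edgeR. Erg (-3.32), Etv6 (-1.72) and Ets2 (-1.29) passed in bone marrow, and none of the 9 passed in the other 3 comparisons.

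The number of genes that passed in bone marrow differed between fits. With secondary disease replicate 4 left out, 7 of the 9 passed, all but Spi1 and Gabpa (2428 of all genes passed), and with the 6 bone marrow libraries alone all 9 did (4929 of all genes). DESeq2 called 5, Erg, Fli1, Etv6, Elf1 and Ets2 (1996 of all genes). By contrast limma-voom (939 of all genes) and edgeR without the filter (349) called 2, Etv6 and Ets2 but not Erg. With any 1 of the 6 bone marrow libraries left out, 0 passed, while 23 to 232 of all genes did. Leaving out secondary disease replicate 4 as well, chosen after seeing the data, gave 3 or 4, with Etv6, Elf1 and Ets2 passing each time, and 997 to 1567 of all genes. All 9 log2 fold changes were below 0 in each of the 19 alternatives.

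Other values moved with this comparison. Of the 9 erythroid marker genes tested, 8 rose in bone marrow doxycycline, at the summed levels given above. Summed megakaryocyte markers were 136 to 169 CPM in bone marrow doxycycline, against 381 to 489 CPM in bone marrow control. Only 3 of these 7 markers were tested, of which none passed and 1 had a log2 fold change above 0. Summed neutrophil markers were 301 to 608 CPM in bone marrow doxycycline, against 814 to 1230 CPM in bone marrow control, and none of 9 passed. Summed endothelial markers were 148 to 166 CPM in bone marrow doxycycline, against 232 to 307 CPM in bone marrow control, and 1 of 5, Plvap, fell, while Emcn was at 0 in the controls. Summed macrophage markers were 10.4 to 28.9 CPM in bone marrow doxycycline, against 9.67 to 29.6 CPM in bone marrow control, and markers of myeloid leukaemia progenitors 287 to 305 CPM in bone marrow doxycycline, against 139 to 262 CPM in bone marrow control, with 0 of 8 and 0 of 6 passing in edgeR. Among the 6 progenitor markers tested, only 1 had a log2 fold change above 0 and the median was -1.09, although their sum was higher. No T, NK or B cell marker passed. T and NK cell markers summed to 5.55 to 8.84 CPM in bone marrow doxycycline, against 5.96 to 14.7 CPM in bone marrow control, and B cell markers to 7.66 to 14 CPM in bone marrow doxycycline, against 6.85 to 12.2 CPM in bone marrow control. The part of these cell types in the lower ETS levels was not tested. In RNA of many cells, fewer cells of a type and less RNA per cell cannot be told apart.

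Genes that work with ETS factors moved in both directions in bone marrow. Of 12 partner genes tested, Lyl1 and Gata2 rose (3.96% of all genes did), Jun fell and 9 did not pass, with a median log2 fold change of -0.30 beside -0.02 over all genes. Jun, the AP-1 subunit that pairs with ETS factors at composite sites, had 250, 124 and 170 CPM in bone marrow doxycycline, against 1570, 1270 and 935 CPM in bone marrow control, with a log2 fold change of -2.79 ± 0.53 (SE; adjusted p = 0.0120). Gata2, a stem and progenitor factor, had 577, 844 and 616 CPM in bone marrow doxycycline, against 264, 235 and 293 CPM in bone marrow control, and rose by 1.36 ± 0.32 on the log2 scale (SE; adjusted p = 0.0249). Lyl1, a basic helix-loop-helix factor of the same complexes, rose by 0.89 ± 0.17 on the log2 scale (SE; adjusted p = 0.0123). Jun was lower in every doxycycline library than in every control, as were 24.6% of all genes tested. Gata2 and Lyl1 were higher in each, and the share of all genes so placed is not given here. Runx1 had a log2 fold change of -0.67 ± 0.30 (SE; adjusted p = 0.208), and the GABPA partners Gabpb1 and Gabpb2 had -0.28 ± 0.24 (adjusted p = 0.569) and 0.30 ± 0.36 (adjusted p = 0.706). These calls were lost in some fits that left out a bone marrow library: Jun and Lyl1 each passed in 3 of those 6, Gata2 in 0.

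Of 16 genes known as targets of ERG and FLI1, 8 were tested, of which Gp1bb and Tek fell and 6 did not pass, with a median log2 fold change of -0.93. Gp1bb, a subunit of the platelet receptor for von Willebrand factor, had 0.171, 0.221 and 0.316 CPM in bone marrow doxycycline, against 18, 19.1 and 19.5 CPM in bone marrow control. The doxycycline values come from at most 7.69 counts in a library, so the log2 fold change of -6.29 ± 1.18 (SE; adjusted p = 0.0115) is imprecise. Tek, the angiopoietin receptor, had 7.38, 7.81 and 7.07 CPM in bone marrow doxycycline, against 115, 127 and 126 CPM in bone marrow control, and a log2 fold change of -4.04 ± 0.95 (SE; adjusted p = 0.0250). Both genes were lower in every doxycycline library than in every control, as were 24.6% of all genes tested. Gp1bb passed in 2 of the 6 fits without 1 bone marrow library and Tek in 0, and limma-voom called neither. Itga2b, the platelet integrin subunit, had -1.88 ± 0.70 (SE; adjusted p = 0.123).

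None of 14 genes known as targets of PU.1 passed in bone marrow in edgeR, limma-voom or DESeq2, and 2 had an unadjusted p under 0.05 in edgeR, where 21.9% of all genes did. Their log2 fold changes had a median of -0.58, and 13 of 14 were below 0. The smallest p-values were those of Btk, a kinase of B cell receptor signalling (-0.88 ± 0.39, SE, adjusted p = 0.194), and Lyz2, lysozyme of myeloid cells (-1.26 ± 0.57, SE, adjusted p = 0.212). Of the 17 remaining ETS genes of the mouse that were listed, 12 were tested and 0 passed in edgeR or limma-voom. In edgeR 5 had an unadjusted p under 0.05 (21.9% of all genes). DESeq2 called 4, Elk4, Etv1, Etv2 and Etv3, where it called 1996 of all genes. Over the 12 genes the median log2 fold change in edgeR was 0.45, and 8 were above 0. Elk4, a partner of serum response factor, had a log2 fold change of 0.48 ± 0.16 (SE; adjusted p = 0.0856). Etv2, known for endothelial and blood specification in the embryo, was at 0 counts in the 3 bone marrow doxycycline libraries, against 0.326, 0.393 and 0.426 CPM in bone marrow control (adjusted p = 0.0864). Its highest count in a control library was 11.

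In spleen, the same drug treatment gave libraries that disagreed with each other. None of the 9 ETS genes passed in edgeR, limma-voom or DESeq2, where 0.741% of all genes tested passed in edgeR and 0.173% passed as lower. At an unadjusted p under 0.05 there were 2, Ets1 and Ets2, where 12.4% of all genes were. All 9 fitted log2 fold changes were below 0, with a median of -0.52 beside 0.02 over all genes. In 5 genes, Fli1, Elf1, Elf4, Ets1 and Ets2, every doxycycline library was below every control, where 10.7% of all genes tested were.

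Replicate 2 held the lowest values of 8 of the 9 genes in spleen doxycycline. Erg had 72.4, 1.36 and 40.4 CPM in spleen doxycycline replicates 1, 2 and 3, against 55.2, 54.8 and 53.7 CPM in spleen control. Replicate 1 thus lay above every control, replicate 2 at 2.49% of the control mean and replicate 3 at 74% of it. The log2 fold change was -0.52 ± 0.80 (SE; 95% interval -2.22 to 1.19; adjusted p = 0.880).

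Fli1 had 99.3, 5.90 and 61.9 CPM in spleen doxycycline, against 136, 115 and 119 CPM in spleen control. All 3 were below the controls, from 80.5% of the control mean in replicate 1 to 4.78% in replicate 2, and the log2 fold change was -1.15 ± 0.58 (SE; 95% interval -2.40 to 0.10; adjusted p = 0.464). Etv6 had 122, 31.4 and 65.1 CPM in spleen doxycycline, against 106, 94.2 and 102 CPM in spleen control, with replicate 1 above and replicates 2 and 3 below every control. Spi1 showed the same split, with 72.1, 10.3 and 20.1 CPM in spleen doxycycline, against 47.1, 49.4 and 51.2 CPM in spleen control. Their log2 fold changes were -0.47 ± 0.35 (SE; adjusted p = 0.668) for Etv6 and -0.52 ± 0.47 (SE; adjusted p = 0.744) for Spi1. Single libraries moved these values. Without replicate 1 they were -1.87 for Fli1, -1.07 for Etv6 and -1.70 for Spi1, and without replicate 2 they were -0.61 for Fli1, -0.11 for Etv6 and -0.09 for Spi1. Without replicate 3, Spi1 was at -0.26.

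Elf1 had 235, 154 and 223 CPM in spleen doxycycline, against 282, 250 and 254 CPM in spleen control, and Elf4 had 130, 66.2 and 108 CPM in spleen doxycycline, against 147, 133 and 152 CPM in spleen control. Both were lower in all 3 libraries, by little in replicate 1. Ets1 had 49.0, 19.0 and 39.7 CPM in spleen doxycycline, against 77.3, 66.9 and 66.7 CPM in spleen control, and the lowest p-value of the 9, with a log2 fold change of -0.97 ± 0.33 (SE; unadjusted p = 0.0107, adjusted p = 0.203). Ets2 had 18.7, 8.58 and 12.1 CPM in spleen doxycycline, against 23.4, 20.3 and 19.9 CPM in spleen control, with -0.69 ± 0.30 (SE; unadjusted p = 0.0362, adjusted p = 0.357).

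Gabpa ran the other way among the replicates, with 49.7, 73.1 and 72.8 CPM in spleen doxycycline, against 81.5, 72.6 and 73.3 CPM in spleen control. Its lowest library was replicate 1, and replicates 2 and 3 lay inside the control range. The log2 fold change was -0.22 ± 0.27 (SE; 95% interval -0.80 to 0.36; adjusted p = 0.834). Counted by library, 6 of the 9 genes lay below all spleen controls in replicate 1 and 3 above them, while 8 lay below in replicate 2 and 8 in replicate 3.

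**Figure D4:**
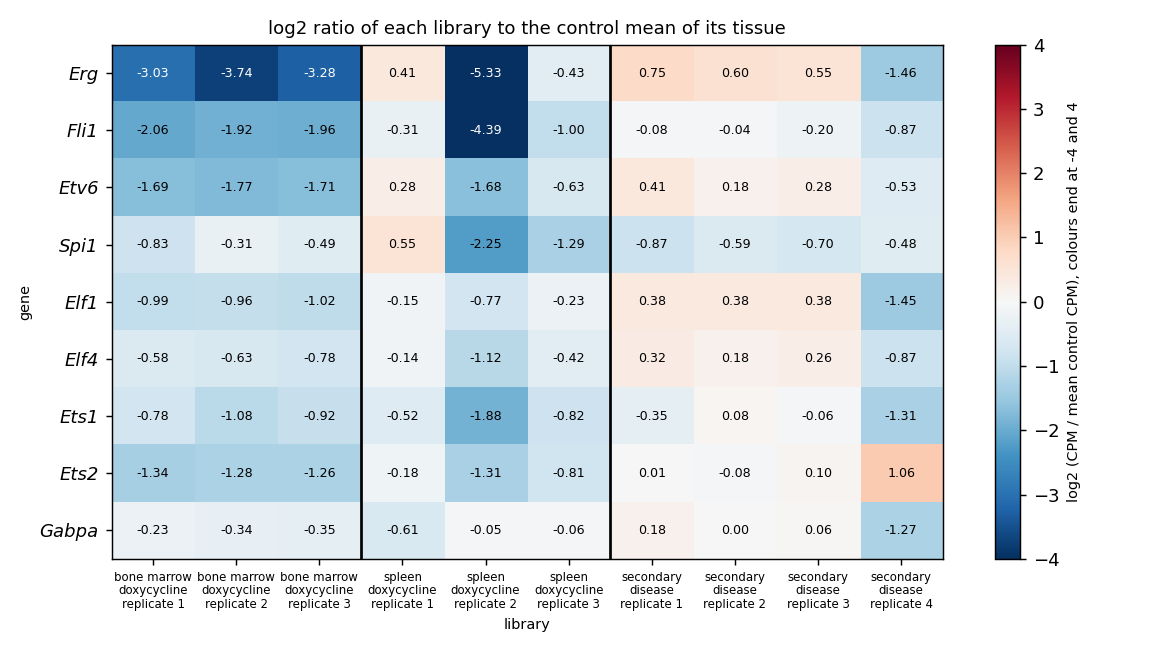
Log2 ratio of each doxycycline and secondary disease library to the mean CPM of the controls of its tissue, for the 9 ETS genes, with blue for lower and red for higher. Spleen doxycycline replicate 2 is lowest for Erg (-5.33) and Fli1 (-4.39), replicate 1 is close to or above controls for most genes, and secondary disease replicate 4 departs from replicates 1 to 3.

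The erythroid marker sums of spleen doxycycline replicates 1, 2 and 3 (5810, 86600 and 41000 CPM) ran in the opposite order to every ETS gene described here except Gabpa. Their megakaryocyte marker sums (789, 41.4 and 350 CPM) ran in the same order as those genes. Of these 7 megakaryocyte markers, 3 were tested in spleen doxycycline against control and 0 passed. Their median log2 fold change was -0.16, and 1, Gp9, was above 0 (2.99). The part of erythroid and megakaryocyte cells in the ETS levels was not tested. Without replicate 1, 4 genes passed, Etv6, Spi1, Ets1 and Ets2 (1364 of all genes), and without secondary disease replicate 4, Ets1 alone passed (766 of all genes). With both left out, chosen after seeing the data, 6 passed, Etv6, Spi1, Elf1, Elf4, Ets1 and Ets2 (3636 of all genes). Erg had a log2 fold change of -1.39 without replicate 1 and of 0.05 without replicate 2. Without replicate 2, Elf1 was at -0.19, Elf4 at -0.27, Ets1 at -0.66 and Ets2 at -0.46, and without replicate 1 Ets2 was at -1.04 and Gabpa at -0.06.

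In the gene lists, 0 of 12 partner genes, 0 of 14 PU.1 target genes, 0 of 8 ERG and FLI1 target genes and 0 of 12 remaining ETS genes passed in spleen doxycycline against control in edgeR. Unadjusted p-values under 0.05 were found for 2, 1, 1 and 2 of them in that order, where 12.4% of all genes had one. DESeq2, which called 698 of all genes here, called Gp9 as higher in the ERG and FLI1 target list. Among the remaining ETS genes it called Etv3 as lower and Spib as higher, and limma-voom called none in these lists. Gp9, a platelet glycoprotein, had a log2 fold change of 2.99 ± 0.81 (SE; edgeR adjusted p = 0.103), and Etv3, a repressor, -0.67 ± 0.19 (SE; edgeR adjusted p = 0.112). Medians were 0.13 for partner genes, 0.19 for PU.1 targets, 0.21 for ERG and FLI1 targets and 0.09 for the remaining ETS genes.

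Whether doxycycline acted differently on the ETS genes in the 2 tissues was tested as the difference between the spleen and the bone marrow log2 fold changes. None of the 9 passed in edgeR, limma-voom or DESeq2, where 0.0485% of all genes did in edgeR, and 2 had an unadjusted p under 0.05, where 7.63% of all genes did. Erg had a difference of 2.80 ± 1.15 (SE; 95% interval 0.34 to 5.27; unadjusted p = 0.0288, adjusted p = 0.555) and Etv6 one of 1.26 ± 0.49 (SE; 95% interval 0.21 to 2.31; unadjusted p = 0.0225, adjusted p = 0.506), both with the spleen value nearer 0. Fli1 had a difference of 0.83 ± 0.82 (SE; 95% interval -0.92 to 2.58; adjusted p = 0.923). Without spleen doxycycline replicate 2, Erg, Fli1 and Etv6 passed (645 of all genes). For Ets1 the difference was -0.04 ± 0.46 (SE; 95% interval -1.03 to 0.95; adjusted p = 0.999). In Spi1 it was 0.00 ± 0.66 (SE; 95% interval -1.41 to 1.41; adjusted p = 1.00), and its sign turned in several fits. Over the lists, 0 genes passed in edgeR and limma-voom, with an unadjusted p under 0.05 in edgeR for 2 partner genes, 2 ERG and FLI1 targets, 1 remaining ETS gene and 0 PU.1 targets. DESeq2, which called 250 of all genes, called Jun and Gp1bb. Their differences in edgeR were 3.27 ± 0.72 (SE; adjusted p = 0.125) and 6.88 ± 1.45 (SE; adjusted p = 0.104).

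Between the control groups, spleen set against bone marrow, none of the 9 passed in edgeR, limma-voom or DESeq2 and none had an unadjusted p under 0.05, where 0.187% of all genes passed in edgeR. These values use the bone marrow controls already used above. Erg had 55.2, 54.8 and 53.7 CPM in spleen control, against 70.0, 79.9 and 84.8 CPM in bone marrow control, all lower, with a log2 fold change of -0.52 ± 0.79 (SE; 95% interval -2.22 to 1.18). Etv6 (-0.46 ± 0.35, SE) and Elf1 (-0.34 ± 0.34, SE) were the other genes whose spleen controls were all below the bone marrow controls, 3 of 9 with Erg, where 16.5% of all genes tested were. In a fit of these 2 groups alone, the 3 passed (1927 of all genes). The remaining 6 lay between -0.15 (Elf4) and 0.18 (Spi1 and Ets1). None of the 14 PU.1 targets passed in edgeR, although 7 had an unadjusted p under 0.05, where 6.92% of all genes did, and the median was -2.01. In limma-voom 5 of them passed as lower (102 of all genes did), and in DESeq2 4 (182 of all genes did). Lyz2 had a log2 fold change of -3.13 ± 0.61 (SE; edgeR adjusted p = 0.0625). The summed neutrophil markers were 49.8 to 155 CPM in spleen control, against 814 to 1230 CPM in bone marrow control, and their part in the PU.1 target values was not tested.

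The secondary disease libraries show leukaemia cells of mice that became fatally ill while on the drug. Against spleen control, none of the 9 passed in edgeR, limma-voom or DESeq2 and none had an unadjusted p under 0.05, where 2.03% of all genes passed in edgeR. The comparisons of secondary disease and of spleen doxycycline with spleen control share the control libraries. Erg had 91.5, 82.5, 79.7 and 19.9 CPM in secondary disease, against 55.2, 54.8 and 53.7 CPM in spleen control. Replicates 1 to 3 lay above every control, at 168%, 151% and 146% of the control mean, and replicate 4 below, at 36.4%. The log2 fold change was 0.33 ± 0.75 (SE; 95% interval -1.27 to 1.93; adjusted p = 0.901), and 0.63 without replicate 4.

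The same split of replicate 4 from the rest held for Etv6, Elf1 and Elf4. Etv6 had 134, 114, 122 and 70.0 CPM in secondary disease, against 106, 94.2 and 102 CPM in spleen control. Elf1 had 342, 342, 340 and 95.9 CPM in secondary disease, against 282, 250 and 254 CPM in spleen control, and Elf4 had 179, 163, 172 and 78.5 CPM in secondary disease, against 147, 133 and 152 CPM in spleen control. In each of these 3 genes, replicates 1 to 3 were above all controls and replicate 4 below them. Without replicate 4 the log2 fold changes were 0.29 for Etv6, 0.38 for Elf1 and 0.26 for Elf4, against 0.13, 0.10 and 0.05 with it.

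Fli1 had 117, 120, 108 and 67.4 CPM in secondary disease, against 136, 115 and 119 CPM in spleen control, with replicates 1 and 2 inside the control range. Ets1 had 55.0, 74.4, 67.5 and 28.4 CPM in secondary disease, against 77.3, 66.9 and 66.7 CPM in spleen control, and Gabpa 85.7, 75.8, 78.7 and 31.4 CPM in secondary disease, against 81.5, 72.6 and 73.3 CPM in spleen control. Replicate 4 was again the lowest for each. Ets2 was the exception, with 21.4, 20, 22.7 and 44.1 CPM in secondary disease, against 23.4, 20.3 and 19.9 CPM in spleen control, where replicate 4 was the highest. Its log2 fold change was 0.35 ± 0.28 (SE) with replicate 4 and 0.01 without it. For Fli1 and Ets1 it was -0.10 without replicate 4, and -0.26 and -0.32 with it.

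Spi1 was the 1 gene of the 9 that was lower in every secondary disease library than in every spleen control, where 12.4% of all genes tested were. It had 27.0, 32.8, 30.3 and 35.3 CPM in secondary disease, against 47.1, 49.4 and 51.2 CPM in spleen control. Replicate 4 did not stand apart for this gene. The log2 fold change was -0.65 ± 0.44 (SE; 95% interval -1.59 to 0.28; adjusted p = 0.553). In a fit of these 2 groups alone it passed, with 404 of all genes. None of the 14 PU.1 target genes passed in edgeR, limma-voom or DESeq2, with 4 of 14 at an unadjusted p under 0.05 in edgeR, where 15.1% of all genes were, and a median of 0.37. Csf1r, the receptor for macrophage colony-stimulating factor, had a log2 fold change of 2.57 ± 1.00 (SE; adjusted p = 0.230) and Lyz2 one of -1.26 ± 0.54 (SE; adjusted p = 0.281). Summed macrophage markers were 95.8 CPM in secondary disease replicate 4, against 8.56 to 32.3 CPM in replicates 1 to 3. Their part in the Csf1r value was not tested.

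Set against spleen doxycycline, secondary disease had higher fitted levels for 8 of the 9 genes, with a median log2 fold change of 0.60 beside -0.01 over all genes, and none passed in edgeR, where 0.928% of all genes did. Ets2, the 1 of 9 with an unadjusted p under 0.05, where 17.4% of all genes had one, had a log2 fold change of 1.04 ± 0.29 (SE; unadjusted p = 0.00265, adjusted p = 0.0942). Its secondary disease libraries (20 to 44.1 CPM) were all above the spleen doxycycline libraries (8.58 to 18.7 CPM), as in 3.08% of all genes tested. DESeq2 called Ets2 (866 of all genes) and limma-voom none. Without secondary disease replicate 4, Elf1 and Elf4 passed (711 of all genes), and without spleen doxycycline replicate 1, Etv6, Spi1 and Ets2 passed (1336 of all genes). Without both, 6 passed (2904 of all genes). Erg differed by 0.85 ± 0.76 (SE; 95% interval -0.78 to 2.47; adjusted p = 0.621) and Fli1 by 0.89 ± 0.55 (SE; 95% interval -0.29 to 2.07; adjusted p = 0.444). Without spleen doxycycline replicate 1 these were 1.72 for Erg and 1.61 for Fli1, and without replicate 2 they were 0.28 and 0.35 in the same order. Ets2 was at 0.70 without secondary disease replicate 4.

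The ETS genes differed in how far they ranged over the 5 groups. The span between the lowest and highest group mean of log2 CPM was 3.33 for Erg, 1.97 for Fli1, 1.72 for Etv6, 1.59 for Ets2 and 1.1 for Ets1. It was 0.99 for Spi1 and for Elf1, 0.71 for Elf4 and 0.3 for Gabpa. For the 5 genes that spanned at least 1 unit, the genes with the most similar pattern over the 16 libraries were sought among 8726 genes, as the smallest root mean square difference of centred log2 CPM. The 16 libraries include the groups compared above, so these are descriptions with no test.

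Nearest to Erg were Slc18a2, the vesicular monoamine transporter (0.28), Synm, an intermediate filament protein (0.35), and the angiopoietin receptor Tek (0.39). Slc18a2 averaged 49.5 ± 5.27 CPM in bone marrow doxycycline and 391 ± 45.7 CPM in bone marrow control (SD, n = 3 each). Near to Fli1 were Pimreg (0.21) and B4galt4, a galactosyltransferase (0.29). Nearest to Etv6 were Mlkl, the effector of necroptosis (0.15), Smurf1, a ubiquitin ligase (0.17), and Slc44a2, a choline transporter (0.2). Ets1 was nearest to Adgrl2, an adhesion receptor (0.15), Lyst (0.16) and Kif13a, a kinesin (0.18). Ets2 was nearest to Klhl2 (0.17), Trim32, a ubiquitin ligase (0.19), and Dag1, which encodes dystroglycan (0.21).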

How the data were processed

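RNA-seq of GFP-sorted mouse leukaemia cells was deposited in the form of expected counts per gene for 16 libraries of 5 groups. Per the labels' protocols, RNA was extracted with TRIzol and libraries were made with oligo-dT selection and a NEBNext Ultra II RNA kit. Trim Galore, FastQC, MultiQC, STAR, RSEM and the build GRCm38 are named in the submitters' processing notes, with no versions, and no source used here gives the strand setting. The authors' files per library hold TPM, used for levels per length and to check that each of the 16 count columns matched its own library. The deposited expected counts (5.8 to 10.8% of values not whole) were rounded. Depth was 12259707 to 39419370 counts per library, which limits low genes most.

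Genes were filtered with edgeR's filterByExpr (14435 of 55487 kept) and scaled by TMM. They were tested with edgeR 4.0.16 (robust quasi-likelihood, all 16 libraries in 1 model of group means, R 4.3.3) for 6 comparisons. The Benjamini-Hochberg threshold was 0.05, intervals are 95%, and the procedure was tested on simulated data. Alternatives were limma 3.58.1 (voom), DESeq2 1.42.0, other scaling, no filter, other sets of libraries, and a replicate block. Correlations between same-numbered libraries showed no clear pairing, but cannot exclude that some came from the same animal. The 9 genes and the lists (remaining ETS genes, partners, PU.1 targets, ERG and FLI1 targets, markers of 8 cell types) were chosen with earlier results of these data known. From each list, up to 4 genes called with the smallest p were named, or the 2 with the smallest p where fewer than 2 were called. Further list genes (Gabpb1, Gabpb2, Itga2b, Runx1, Plvap and Cbfb) were chosen after their values were seen. Nearest genes are the 3 closest per gene among those whose average log2 CPM reached 3. 1 of them is not reported here. Positions follow GENCODE, and promoters RefSeq.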

Additional observations from a re-analysis of the deposited data

Results flagged for a closer look

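Secondary disease replicate 4 stood so far from the other 3 libraries of its group that Dixon's test picked it out in 9 of 21 ETS genes looked at, 4 of them among the 9 ETS genes of blood cells. Chance picks out about 1 in 20 groups (5%), but over all 14435 genes tested this library was picked out in 29.7%, and genes of 1 library are not independent. Erg (19.9 CPM, others 79.7 to 91.5 CPM), Elf1 (95.9 CPM, others 340 to 342 CPM), Elf4 (78.5 CPM, others 163 to 179 CPM) and Etv2 (0 CPM, others 0.58 to 0.625 CPM) were lowest there. Ets2 (44.1 CPM, others 20 to 22.7 CPM) and Elk1 (22.6 CPM, others 5.42 to 6.8 CPM) were highest in that library. So were Erf (26.1 CPM, others 8.04 to 9.96 CPM), Etv1 (23.4 CPM, others 0.117 to 0.207 CPM) and Etv5 (29.1 CPM, others 0.273 to 0.508 CPM). That library also had the lowest depth of the 16 (12259707 counts), summed T and NK cell markers of 23.5 CPM, against 4.1 to 5.09 CPM in the others, and summed macrophage markers of 95.8 CPM, against 8.56 to 32.3 CPM. Its neutrophil markers summed to 62.9 CPM, against 2.3 to 19.7 CPM, and its markers of myeloid leukaemia progenitors to 61.1 CPM, against 139 to 167 CPM. Their part in these values was not tested.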

How the results depend on the processing

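In bone marrow all 9 ETS genes were below 0 in each of 19 alternatives, but the number called was not stable. Comparisons are given in the order bone marrow doxycycline against control, spleen doxycycline against control, difference between tissues, spleen against bone marrow control, secondary disease against spleen control, and secondary disease against spleen doxycycline. edgeR called 949, 107, 7, 27, 293 and 134 genes in these. Without a filter on low counts it called 349, 10, 2, 7, 134 and 26, and without secondary disease replicate 4 it called 2428, 766, 105, 190, 523 and 711. DESeq2 called 1996, 698, 250, 304, 756 and 866. With only the groups compared, the counts were 4929, 1, 23 and 1927 in the first 4 comparisons and 0 in the last. The replicate block gave 1966, 374, 39 and 117 in the first 4 and 347 in the last. Number 4 occurs only in secondary disease, so with the block that library adds nothing to the group comparisons. The block is thus no separate check from the fit without it. Same-numbered pairs correlated at -0.27 to 0.16, with 4 of 30 above 0.1 and 9 under -0.1. These correlations showed no clear pairing but cannot exclude it, since each group has few libraries. limma-voom called 34 genes for the difference between tissues, 170 between controls and 66 for secondary disease against spleen doxycycline. With spleen doxycycline replicate 1 and secondary disease replicate 4 both left out, chosen after seeing the data, the spleen comparisons called 3636 and 2904 genes and the difference 548. With secondary disease replicate 4 and bone marrow control replicate 3 left out, likewise, bone marrow called 1567. Of the 9 ETS genes, bone marrow called 6 with the replicate block, 9 with only its groups, 7 without secondary disease replicate 4 and 5 in DESeq2. Spleen doxycycline called 1 without that library and 6 with both left out. The controls called 3 and secondary disease against spleen control 1 with only the groups compared. Secondary disease against spleen doxycycline called 2 with the replicate block, 2 without replicate 4, 1 in DESeq2 and 6 with both left out. Leaving out 1 library at a time, called ETS genes were 0 to 0, 0 to 4, 0 to 3, 0 to 0, 0 to 0 and 0 to 3, and called genes 23 to 232, 0 to 1364, 0 to 645, 0 to 12, 61 to 523 and 0 to 1336. The cause was not tested. Some log2 fold changes changed sign, among them large ones of Etv1, Etv5, Cebpa and Csf1r in secondary disease (4.25 and 3.07 for Etv1 and Etv5 against spleen control, 4.65, 3.38, 2.21 and 1.69 for the 4 against spleen doxycycline). For the difference between tissues, Spi1 was -0.02 with DESeq2 size factors and in DESeq2, -0.20 with the replicate block, -0.43 in limma-voom and -1.17 with both libraries left out, where Elf4 was -0.07. For secondary disease against spleen control, Gabpa was 0.08 with the replicate block and without replicate 4, Elf1 -0.08 and Elf4 -0.02 in limma-voom. Etv1 was -1.01 with the replicate block and without replicate 4, and Etv5 -1.31 with the block, -1.30 without replicate 4 and -0.21 in limma-voom. Against spleen doxycycline, Spi1 was 0.27 in limma-voom and 0.98 with both left out, Etv5 -0.97 with the replicate block, -0.99 without replicate 4 and -1.24 with both left out, and Etv1 -0.64, -0.61 and -1.24 in the same settings. Cebpa was -0.08 and Csf1r -0.29 with both left out. Leave-one-out ranges that crossed 0 were, for the difference between tissues, -1.17 to 0.43 for Spi1, -0.34 to 0.26 for Ets1, -0.06 to 0.39 for Elf4 and -0.01 to 0.25 for Gabpa. Between controls they were -0.08 to 0.03 for Gabpa and -0.01 to 0.09 for Ets2. For secondary disease against spleen control they were -0.05 to 0.26 for Elf4, -0.01 to 0.38 for Elf1, -0.28 to 0.08 for Gabpa, -1.01 to 4.61 for Etv1 and -1.30 to 3.42 for Etv5. Against spleen doxycycline they were -0.57 to 1.04 for Spi1, -0.10 to 0.30 for Gabpa, -0.61 to 7.97 for Etv1 and -0.99 to 3.89 for Etv5. For spleen doxycycline against control it was -1.39 to 0.05 for Erg.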
